A study of Mus musculus with 5 samples.

Results

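Regions of open chromatin, of HEB and of TCF1 were described around 6 genes for surface proteins of T cells: Cd3g, Cd3d and Cd3e, which lie side by side, Thy1, and the neighbours Cd5 and Cd6. The regions were chosen by position: every region of the 3 deposited lists that overlapped the mouse mm9 window from 44750001 to 44850000 of chromosome 9 (Cd3 cluster), from 43800001 to 43900000 of chromosome 9 (Thy1) or from 10780001 to 10920000 of chromosome 19 (Cd5 and Cd6). The windows had been picked with the region lists known, so the number of regions in them is a description and was not tested. They held 96 of the 56796 listed regions: 78 of 48320 in the DNaseI list, 5 of 4930 in the HEB list and 13 of 3546 in the TCF1 list. The lists came from double positive (DP) thymocytes, the immature thymic T cells that carry CD4 and CD8, of mice labelled C57/BL6 and aged 4 to 6 weeks. The labels name no mutation and no treatment. Each assay had 1 sample, DNase I hypersensitivity or chromatin immunoprecipitation (ChIP) for HEB or TCF1, and biological error was therefore not measured. The 2 samples for H3K9me3 and H3K27ac were not analysed here. The lists hold no expression values, and the cell type was not checked against marker genes.

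The CD3 gamma, delta and epsilon chains encoded by Cd3g, Cd3d and Cd3e assemble with the T cell receptor and carry its signal into the cell through tyrosine motifs in their tails. Thy1 encodes a small glycoprotein held by a lipid anchor and is abundant on mouse thymocytes. Cd5 and Cd6 encode related receptors of the scavenger receptor cysteine-rich family; CD5 dampens T cell receptor signals, and its surface level is known to follow their strength, while CD6 binds the adhesion molecule ALCAM. HEB, the product of Tcf12, is an E protein that binds E-boxes, and TCF1, the product of Tcf7, is a factor with an HMG box. DNase I cuts chromatin where nucleosomes are displaced, as at active promoters and enhancers.

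Promoter sequences show where letters that match the motifs of either kind of factor occur near some of these genes. They are shown for the 4 genes with an entry in the RefSeq promoter table of build GRCm38.p6 (Cd3g, Cd3d, Cd3e and Cd5), from 250 bases before the gene start to 50 bases after it, 5′ to 3′ on the gene's strand. Capitals mark the E-box CANNTG and the TCF and LEF motif CTTTGA, on either strand. These coordinates are of another build than the regions, so no region was placed on a promoter.
Cd3g (chr9:44980382-44980681, minus strand): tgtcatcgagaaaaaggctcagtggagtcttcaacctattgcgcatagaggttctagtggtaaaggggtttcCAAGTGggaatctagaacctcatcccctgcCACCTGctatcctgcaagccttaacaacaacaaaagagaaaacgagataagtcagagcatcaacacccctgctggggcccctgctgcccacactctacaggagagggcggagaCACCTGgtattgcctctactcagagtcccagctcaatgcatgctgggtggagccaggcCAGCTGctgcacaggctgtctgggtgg
Cd3d (chr9:44981536-44981835, plus strand): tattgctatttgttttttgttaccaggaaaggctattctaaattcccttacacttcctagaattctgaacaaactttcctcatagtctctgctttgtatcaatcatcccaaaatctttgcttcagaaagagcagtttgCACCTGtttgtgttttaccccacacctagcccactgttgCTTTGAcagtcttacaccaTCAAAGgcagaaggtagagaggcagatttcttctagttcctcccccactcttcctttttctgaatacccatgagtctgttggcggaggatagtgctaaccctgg
Cd3e (chr9:45009562-45009861, minus strand): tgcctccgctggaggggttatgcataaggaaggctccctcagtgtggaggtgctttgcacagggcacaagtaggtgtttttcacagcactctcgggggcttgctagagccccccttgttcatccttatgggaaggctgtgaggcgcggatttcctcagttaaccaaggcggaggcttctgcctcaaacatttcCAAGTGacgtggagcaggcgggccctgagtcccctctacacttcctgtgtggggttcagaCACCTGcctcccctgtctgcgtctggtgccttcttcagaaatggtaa
Cd5 (chr19:10738925-10739224, minus strand): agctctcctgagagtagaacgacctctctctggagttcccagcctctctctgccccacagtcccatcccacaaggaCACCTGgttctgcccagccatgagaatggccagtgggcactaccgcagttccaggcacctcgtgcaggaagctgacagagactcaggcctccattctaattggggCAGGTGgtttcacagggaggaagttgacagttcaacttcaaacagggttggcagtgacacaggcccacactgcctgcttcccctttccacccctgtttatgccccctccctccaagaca

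All 4 promoters held an E-box, as did 72.3% of the 32851 promoters in the table. The E-box form CAGGTG, which E proteins bind, was in all 4, against 20.2% of all promoters, and its palindromic relative CAGCTG was in Cd3g alone, against 16.3%. Both forms are also counted as CANNTG. Cd3g held 4 E-boxes, Cd3e and Cd5 held 2 each and Cd3d held 1, which began 112 bases before the start. CTTTGA was in Cd3d alone, with 2 matches on opposite strands that began 73 and 54 bases before the start. Of all promoters, 16.0% held this motif and 1.7% held it 2 or more times. The 4 genes are too few for a comparison, and a match of letters is not a site of binding.

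The 3 loci were rich in open chromatin and unequal in the factors. The Thy1 window held 26 DNaseI regions, 4 HEB regions and 5 TCF1 regions. The Cd3 cluster window held 24 DNaseI regions, 1 HEB region and 6 TCF1 regions. The longer Cd5 and Cd6 window, of 140 kb, held 28 DNaseI regions, no HEB region and 2 TCF1 regions. Per 100 kb this came to 26.0 DNaseI regions at Thy1 (95% exact Poisson interval 17.0 to 38.1), 24.0 at the Cd3 cluster (15.4 to 35.7) and 20.0 at Cd5 and Cd6 (13.3 to 28.9), with overlapping intervals. For TCF1 these values were 5.0 (1.62 to 11.7), 6.0 (2.2 to 13.1) and 1.43 (0.173 to 5.16), and for HEB 4.0 (1.09 to 10.2), 1.0 (0.0253 to 5.57) and 0 (0 to 2.63), again with overlapping intervals. Poisson intervals cover counting error only. DNaseI regions covered 17.4% of the Thy1 window, 14.8% of the Cd3 cluster window and 12.4% of the Cd5 and Cd6 window.

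Few stretches of the genome held as many DNaseI regions as the 3 windows, while the factor counts stood less far apart at Cd5 and Cd6. A grid of 26397 windows of 100 kb had a mean of 1.84 DNaseI regions per window, and 76 of these windows held at least the 26 of Thy1 and 121 at least the 24 of the Cd3 cluster. At least the 9 HEB and TCF1 regions of Thy1 together were found in 14 windows, and at least the 7 of the Cd3 cluster in 43. At least 6 TCF1 regions, the number at the Cd3 cluster, were found in 9 windows, whereas at least 1 HEB region, its number there, was found in 3953, or 15.0%. Among 18861 windows of 140 kb, 129 held at least the 28 DNaseI regions of Cd5 and Cd6, and 710 held at least 2 TCF1 regions. At least 2 HEB and TCF1 regions together, the number at Cd5 and Cd6, were found in 1809 of them, or 9.59%. The absence of HEB at Cd5 and Cd6 was shared with 80.0% of the windows of that size. However, 59.3% of these windows held no DNaseI region at all. Windows with about as many DNaseI regions as Cd5 and Cd6 were not compared for HEB.

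The surroundings differed between the loci. The Thy1 window held 26 DNaseI regions and each of the 10 windows on either side held at most 23, with a median of 6. It stood at a border: the 2 windows before it held 3 and 6 DNaseI regions, and the 2 after it held 15 and 13. The Cd5 and Cd6 window stood further above its surroundings, with 28 DNaseI regions against a median of 2.5 and at most 16 in a neighbouring window. HEB, with 0 regions in that window, had 2 regions in the window just before it and 2 in that just after it. The Cd3 cluster window, with 24 DNaseI regions against a median of 9, lay in a region-rich part of chromosome 9, where 3 of its 20 neighbouring windows held as many or more. Its 6 TCF1 regions were more than in any of those 20 windows, which held 4 at most. The loci on chromosome 9 lie close enough that windows 900 and 1000 kb to 1 side of each overlap the other.

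**Figure D1:**
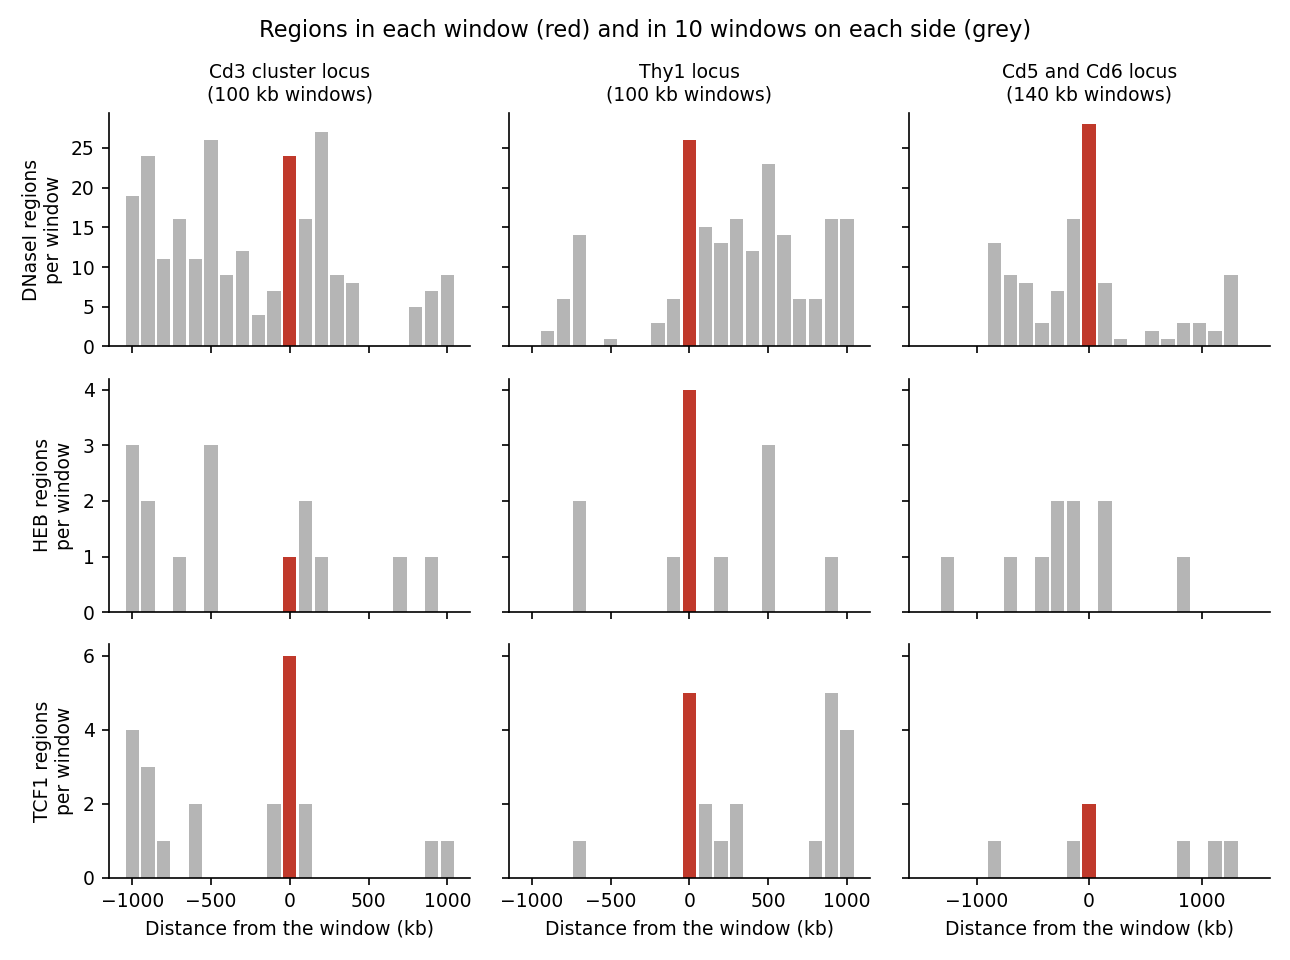
Number of DNaseI, HEB and TCF1 regions (rows) in each locus window (red) and in 10 windows of the same size on each side (grey), by distance from the locus window in kb. DNaseI counts in the red windows are 24, 26 and 28 from left to right, and the grey windows beside Cd5 and Cd6 reach 16 at most.

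At the Cd3 cluster, 7 of the 24 DNaseI regions formed a core within 11.4 kb, from 44786174 to 44797547, of which 56.0% was covered. These held 6367 of the 14780 bp covered by DNaseI regions in the window. Outside the core, another 7 lay within 9.1 kb, from 44815374 to 44824449. The score that the authors deposited with each region, a whole number without a stated unit, is used here only within its own list. The highest-scoring DNaseI region of all 3 loci lay in this core, from 44792595 to 44795353. It scored 287 and was 2759 bp wide. It ranked 46 from the top of the DNaseI list. It carried 1 TCF1 region, with a score of 13, from 44794647 to 44794829. At lower coordinates lay DNaseI regions with scores of 123 (44789927 to 44791062) and 126 (44787776 to 44788893).

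The DNaseI region with a score of 126 carried the only HEB region of the Cd3 cluster window. This HEB region, from 44788380 to 44788580, had a score of 27, above 94.1% of the HEB list. A TCF1 region with a score of 12, from 44788405 to 44788587, lay almost on top of it, with 176 bp shared. A further TCF1 region, from 44789761 to 44789943 with a score of 17, fell into a gap of 369 bp between DNaseI regions and reached the one with a score of 123 by 17 bp only. Both factors and 3 of the 6 TCF1 regions of the window thus lay in the core. The other TCF1 regions stood apart: one with a score of 20 from 44762610 to 44762792 in a DNaseI region with a score of 37 (44762292 to 44763078), one with a score of 8 from 44806649 to 44806831 in a DNaseI region with a score of 17 (44806453 to 44806772), and one with a score of 9 from 44817594 to 44817776 in a DNaseI region with a score of 146 (44817115 to 44818153).

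High DNaseI scores at the Cd3 cluster did not always go with a factor. The region from 44773130 to 44774175 had a score of 113 and that from 44815374 to 44816878 a score of 98, and neither carried HEB or TCF1. After the DNaseI region that ended at 44824449, no open region was listed for 24.9 kb. In the order of protein-coding genes in GRCm38.p6, Cd3g, Cd3d and Cd3e follow each other with Ube4a on one side and Mpzl2 on the other. No gene was assigned to any region, and those of neighbouring genes may be among them.

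At Thy1 the HEB and TCF1 regions lay together. Of the 4 HEB regions, 3 overlapped a TCF1 region. The DNaseI region with the highest score of this window, 192, ran from 43819888 to 43822034 and carried HEB (43820348 to 43820548, score 15) and 2 TCF1 regions (43820389 to 43820571, score 8, and 43820751 to 43820933, score 10). The next in score, 142, ran from 43853771 to 43856049 and carried HEB (43855282 to 43855482, score 19) and TCF1 (43855185 to 43855367, score 10). A DNaseI region with a score of 70, from 43829976 to 43830971, carried HEB (43830244 to 43830444) at a score of 11, the lowest HEB score of the loci, and TCF1 (43830302 to 43830484) at a score of 21, their highest TCF1 score.

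The other factor regions of the Thy1 window stood alone. HEB from 43875404 to 43875604, with a score of 18, lay in a DNaseI region with a score of 84 (43874789 to 43875903) and was 20228 bp from the nearest TCF1 centre. TCF1 from 43842120 to 43842302, with a score of 10, lay in a DNaseI region with a score of 69 (43841878 to 43842885). The DNaseI region from 43838949 to 43839867 had a score of 76 and carried neither factor. Each of the 5 DNaseI regions with a factor scored at least 69, and the 21 without one had scores of 8 to 76, with a median of 17. Thy1 lies between Nectin1 and Usp2 in the order of protein-coding genes in GRCm38.p6.

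The Cd5 and Cd6 window held 28 DNaseI regions, 2 TCF1 regions and no HEB region. Its DNaseI scores had a median of 16, equal to that of the whole list, and 13 of the 28 scored above it. The DNaseI region from 10861382 to 10863382 had a score of 189 and carried TCF1 (10861956 to 10862138, score 14). The other TCF1 region, from 10826149 to 10826331 with a score of 18, shared 22 bp with the edge of a DNaseI region with a score of 30 (10826310 to 10826911). DNaseI regions with scores of 143 (10903050 to 10904965) and 136 (10857165 to 10859206) carried neither factor, and these were the highest scores without a factor in the 3 loci. The nearest HEB regions outside the window lay 97.5 kb before it and 8.36 kb after it, each with a score of 10. Between 10866741 and 10901939, no open region was listed for 35.2 kb, the longest such gap of the 3 windows. Among the protein-coding genes of GRCm38.p6, Cd5 and Cd6 are direct neighbours, between Vps37c and Slc15a3.

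**Figure D2:**
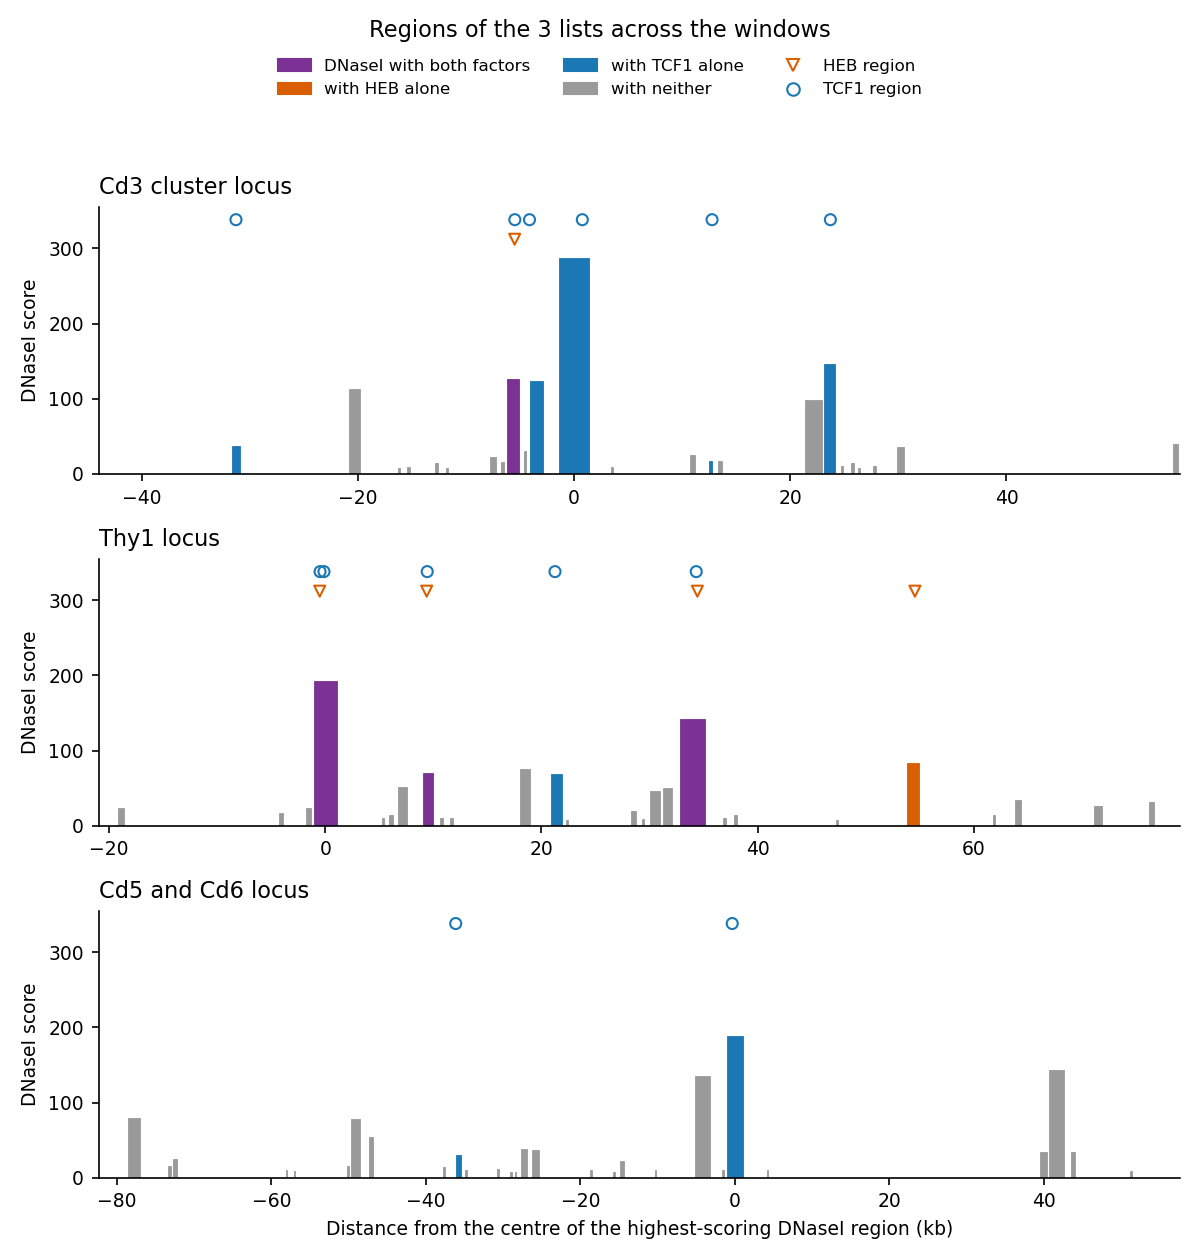
DNaseI regions of the 3 windows as bars, with their score as height and their width to scale, by distance in kb from the centre of the highest-scoring DNaseI region of each window. Colours show which factors a DNaseI region carried, and triangles and circles above mark HEB and TCF1 regions. The tallest bars reach 287, 192 and 189 from top to bottom, and the Cd5 and Cd6 panel holds no triangle.

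All factor regions of the loci met open chromatin. The 5 HEB regions all overlapped a DNaseI region (exact 95% binomial interval of the share 47.8 to 100%), against 34.5% of the whole HEB list. The 13 TCF1 regions all did so too (75.3 to 100%), against 84.9% of the whole TCF1 list. These are overlaps of at least 1 bp. The centre lay inside the DNaseI region for 11 of the 13 TCF1 regions, against 79.6% of the whole list, and the exceptions were the TCF1 regions with scores of 17 and 18 described above. The whole lists include the regions of the loci, and binomial intervals cover counting error only. DNaseI regions were dense in these windows, with 22.9 per 100 kb against a mean of 1.84 in the grid of 100 kb windows. The shares of the loci and of the whole lists are therefore not like for like. In windows 50 kb wider on each side, 71.4% of the HEB regions and 100% of the TCF1 regions overlapped a DNaseI region.

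The factors met each other in 4 places, 3 at Thy1 and 1 at the Cd3 cluster. This was 4 of 5 HEB regions (80.0%, exact binomial interval 28.4 to 99.5%), against 11.7% of the whole HEB list. These shares are not like for like, since all 5 lay in open chromatin, against 34.5% of that list. Of the 1701 listed HEB regions in open chromatin, at most 578 overlapped a TCF1 region, and their exact share was not determined. From the side of TCF1 the overlaps involved 4 of 13 regions (30.8%, 9.09 to 61.4%), against 16.3% of the whole TCF1 list, which lies inside the interval. The centres of the paired regions were 16, 32, 49 and 106 bp apart. Their median distance of 40.5 bp stood beside 43 bp (quartiles 18 and 81) for all 578 overlapping pairs in the lists. HEB scores of 27, 19, 15 and 11 met TCF1 scores of 12, 10, 8 and 21, so the lowest HEB score of the pairs stood beside their highest TCF1 score.

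**Figure D3:**
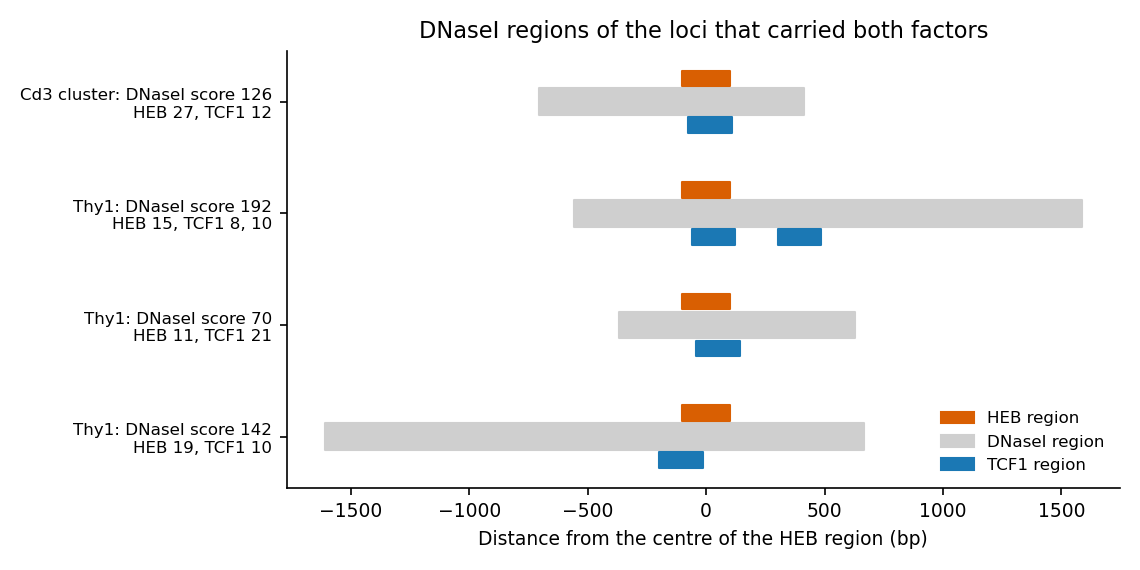
The 4 DNaseI regions of the loci that carried both factors (grey), with HEB regions above and TCF1 regions below, by distance in bp from the centre of the HEB region. Labels on the left give the deposited scores. The centre of the nearest TCF1 region lies between 16 and 106 bp from the HEB centre in each.

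Of the 78 DNaseI regions, 13 carried a factor, or 16.7% (exact binomial interval 9.18 to 26.8%), against 8.25% of the whole DNaseI list. TCF1 alone was on 8, both factors were on 4 and HEB alone was on 1. The share with both was 4 of 78, against 1.28% of the whole list. When only regions with scores above the median of their list were counted, 1 of the 43 DNaseI regions left carried both. The whole-list share under this rule is not given. By locus, 6 of 24 carried a factor at the Cd3 cluster, 5 of 26 at Thy1 and 2 of 28 at Cd5 and Cd6. The share of 7.14% at Cd5 and Cd6 was close to the 8.25% of the whole list. The intervals of these shares, 9.77 to 46.7%, 6.55 to 39.4% and 0.877 to 23.5%, overlapped.

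Open regions with a factor were mostly wide and high-scoring. The 13 with a factor had a median score of 123 (17 to 287) and a median width of 1115 bp, and the 65 without one a median score of 16 (8 to 143) and a median width of 320 bp. In the whole list these medians were 52 and 725 bp with a factor and 15 and 306 bp without. Loci and whole list thus had about the same values without a factor, and the loci had higher ones with a factor. The 2 groups of the loci overlapped: the TCF1 region with a score of 8 at the Cd3 cluster met a DNaseI region with a score of 17 only. Of the 10 DNaseI regions of the loci with scores of 100 or more, 7 carried a factor, against 51.6% of the 1516 such regions in the list. These 10 regions are too few for a comparison, and the one with a score of 123 met a TCF1 region by 17 bp only. A wide region meets a factor region more readily at an overlap of 1 bp, and score follows width in this list. How far the differences in width and score follow from this was not tested. With 50% of the shorter region required to overlap, 11 DNaseI regions of the loci carried a factor.

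Taken over all 78 regions, the DNaseI scores were moderate. Their median was 21.5, against 16 in the whole list, and 43 of the 78 scored above that list median. The median region stood above 60.0% of the list. Score follows width in this list, and within classes of similar width the median region stood above 49.8%. By locus the median score was 24 at Thy1, 20 at the Cd3 cluster and 16 at Cd5 and Cd6. The lowest score of each window was 8, the lowest of the list.

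**Figure D4:**
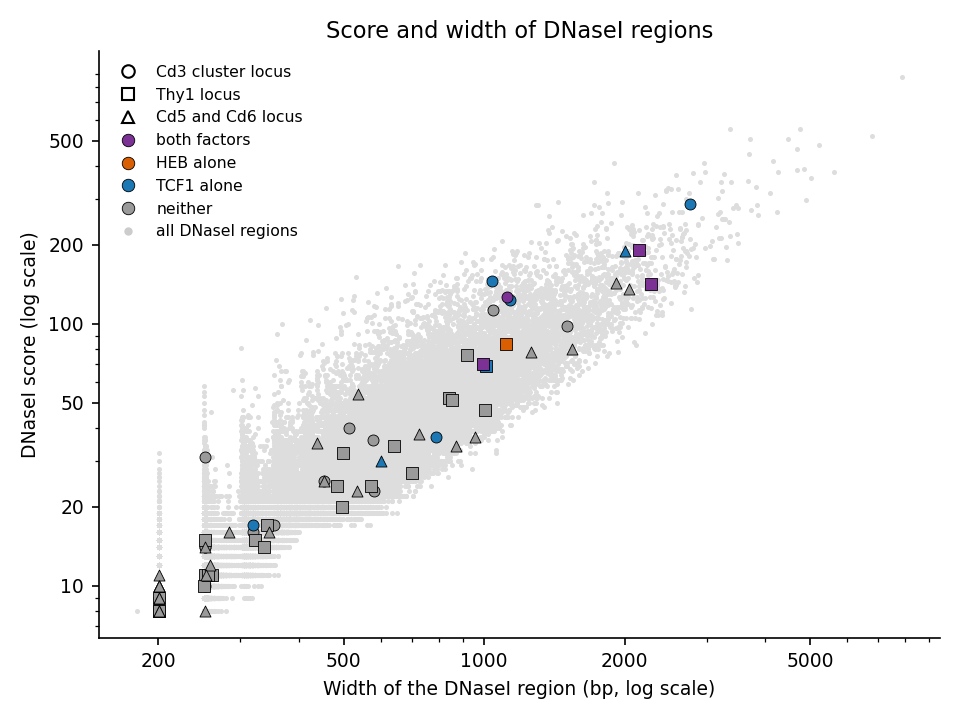
Score against width of DNaseI regions, both on log scales, for the 78 regions of the loci (symbols by locus, colours by the factors carried) and the whole list (light grey). Regions with a factor lie mostly at the upper right, with a median score of 123 and a median width of 1115 bp.

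Of the 5 HEB scores of the loci, 4 lay above the median of their list, and the TCF1 scores were mixed. HEB scores were 27 at the Cd3 cluster and 11, 15, 18 and 19 at Thy1, against a list median of 11 and an upper quartile of 15. The score of 11 stood above 40.9% of the HEB list. All 5 of these HEB regions lay in open chromatin, against 34.5% of the list, so this comparison is not like for like. TCF1 scores were 8, 9, 12, 13, 17 and 20 at the Cd3 cluster, 8, 10, 10, 10 and 21 at Thy1, and 14 and 18 at Cd5 and Cd6, against a list median of 11. At Thy1, 4 of the 5 TCF1 scores lay below that median. The highest TCF1 scores were not on the highest DNaseI scores: those of 21 and 20 lay on DNaseI regions with scores of 70 and 37, and the DNaseI region with a score of 192 carried TCF1 scores of 8 and 10.

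**Figure D5:**
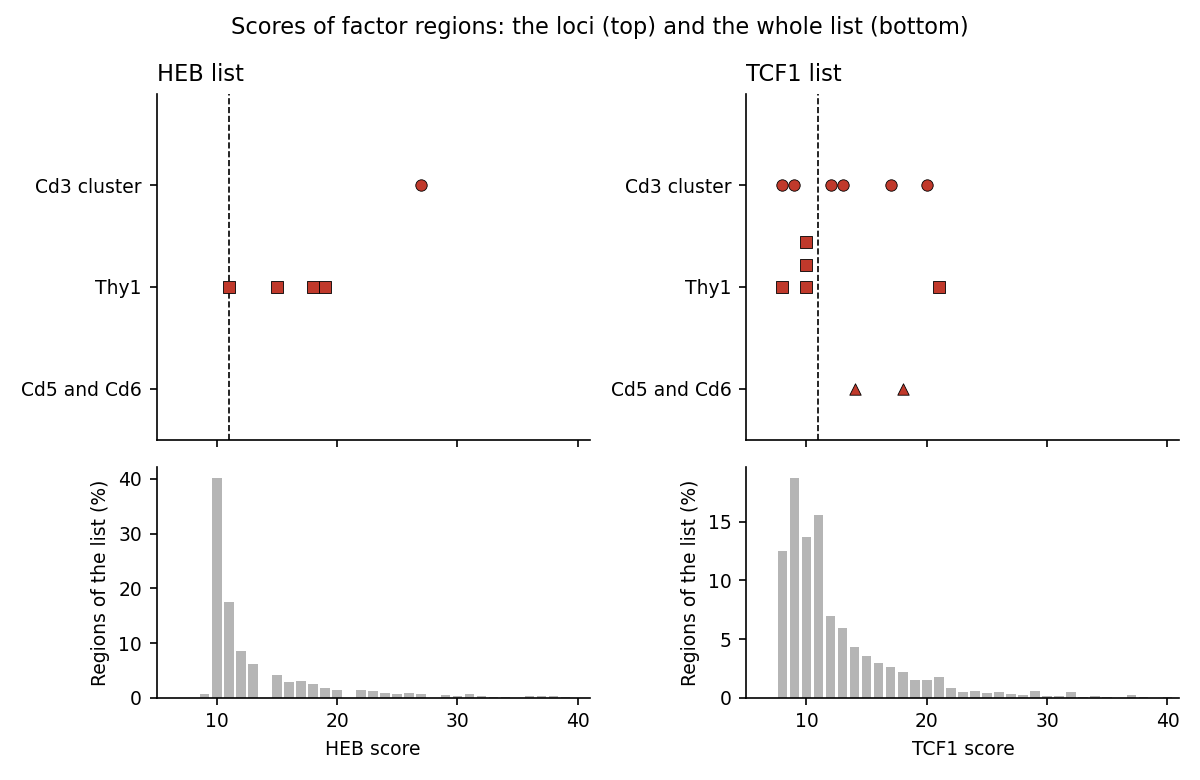
Scores of the HEB (left) and TCF1 (right) regions of the loci (top, equal scores stacked, dashed line at the list median of 11) and share of the whole list in percent at each score (bottom, drawn up to 40). No HEB score of the loci lies below the list median, and 4 of the 5 TCF1 scores at Thy1 do.

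Open regions of the loci were tightly spaced, which goes with their high number per window and is not a separate trait. Another DNaseI region lay within 10 kb for 77 of the 78, against 78.7% of the whole list, and the median gap to the nearest was 619 bp. With DNaseI regions joined into stretches where at most 2 kb lay between them, 27 of the 78 fell into 4 stretches of 6 or more regions, against 6.96% of the list in such stretches. A pair of these, with 7 regions each, lay at the Cd3 cluster (44786174 to 44797547 and 44815374 to 44824449). Those at Thy1 ran from 43826179 to 43832741 with 6 regions and from 43849203 to 43859064 with 7. The longest at Cd5 and Cd6 had 5 regions, from 10831619 to 10837015, and carried no factor.

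Inside their DNaseI regions, most factor centres lay nearer to the centre than to the edge, with medians close to those of the whole lists. HEB centres were 26.0 to 47.8% of the way from the centre of the DNaseI region to its edge, with a median of 28.3% against 33.7% for the 1701 HEB regions in open chromatin. For TCF1 the median was 33.5% against 34.0% for 3010 regions, with a range of 4.1 to 123.1%. Values above 100% belong to the TCF1 regions whose centre lay outside.

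The limits of the windows left out close neighbours in places. At the right edge of the Cd3 cluster window, a DNaseI region with a score of 40 lay 138 bp inside and one with a score of 11 lay 178 bp outside. At Thy1 the DNaseI regions nearest to the edges lay 1.78 kb inside and 3.75 kb outside on the left, with scores of 24 and 23, and 2.38 kb inside and 2.12 kb outside on the right, with scores of 32 and 11. At Cd5 and Cd6 they lay 3.84 kb inside (score 80) and 7.01 kb outside (score 8) on the left, and 6.2 kb inside (score 9) and 34.6 kb outside (score 27) on the right. The factor regions nearest to a window from outside were HEB with a score of 10 at 8.36 kb from Cd5 and Cd6 and TCF1 with a score of 9 at 13.1 kb from the Cd3 cluster.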

How the data were processed

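Per the labels' protocols, SOLiD sequencing was used for the DNase I and ChIP material. Nuclei for the DNaseI sample were digested for 3 min at 37 °C and fragments under 500 bp recovered, per the labels. The submitters' processing notes name HOMER 6.1 and mm9, without their role. Not given in the sources used here are aligner, thresholds, controls and depth. Each region list deposited by the authors gives positions and a whole-number score of unknown unit. Scores were compared within a list only. Every HEB region spanned 201 bp and every TCF1 region 183 bp, so widths are described for DNaseI only.

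Positions were converted to mm9 coordinates counted from 1, and lists were intersected with Python 3.11.15, numpy 2.4.6, pandas 2.3.3 and scipy 1.17.1, with code tested on simulated data. Overlap was at least 1 bp. A percentile is the share of a list with a lower score, and width classes were the 9 that DNaseI width deciles gave with equal widths kept together. No test was run, since each assay had 1 sample. The windows, genes and comparisons were chosen with earlier results of these data known. The 2 kb stretches, the score of 100, the position inside DNaseI regions and the count of centres were chosen after the values were seen. Every HEB and TCF1 region of the windows was to be named, with each DNaseI region that carried one and the 3 highest-scoring per window. Other overlap rules, scores above each list's median, windows 50 kb wider on each side, a shifted grid and autosomes alone were tried. The gene and promoter tables are of GRCm38.p6 and served for gene order and motifs only. Gene order is that of protein-coding genes. The planned check of thymocyte markers needed an annotation of the build of the lists and was not run.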

Additional observations from a re-analysis of the deposited data

How the results depend on the processing

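Of 42 alternative values for the summary results, 32 stayed within counting error or 1.5 times of the value reported, and 10 moved further. Of the alternative counts by single locus, 21 stayed within 1.5 times and 6 moved further. Wider windows can only hold as many regions or more, so a count that stayed there says nothing of density. With scores above each list's median, 43 DNaseI and 7 TCF1 regions were left in the windows, and 1 DNaseI region carried both factors, as fewer regions enter. When only windows with at least 1 DNaseI region counted, the share with at least as many DNaseI regions was 1.26% for the Cd3 cluster, 0.79% for Thy1 and 1.68% for Cd5 and Cd6 (0.458%, 0.288% and 0.684% of all windows), and the share with at least as many factor regions was 0.447%, 0.146% and 21% (0.163%, 0.053% and 9.59% of all windows), since fewer windows enter. With the grid shifted by 50 kb, the share with at least as many factor regions as the Cd3 cluster was 0.11%, against 0.163%; the cause was not tested. With 50% of the shorter region required to overlap, 84.6% of the TCF1 regions lay in DNaseI regions, and in windows 50 kb wider on each side 71.4% of the HEB regions did. The whole-list share under the 50% rule is not given, and the 84.9% above is for overlaps of at least 1 bp.

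Depth is unknown, so a region missing from a list is only not listed there. No paired analysis was possible because each assay had 1 sample, and there was no replicate to leave out.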
